A study of Mus musculus with 2 samples.

Results

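The genes examined here carry the signal of interleukin 7 (IL-7) and thymic stromal lymphopoietin (TSLP) from the cell surface to the nucleus. The group held 10 genes, chosen by name for their place in this pathway, of 20250 protein-coding genes with a symbol in the deposited table: the receptor chains *Il7r*, *Il2rg* and *Crlf2*, the kinases *Jak1* and *Jak3*, the transcription factors *Stat5a* and *Stat5b*, and the feedback inhibitors *Socs1*, *Socs2* and *Cish*. All 10 were found, with 18 protein-coding RefSeq transcripts among them. Steady state RNA was measured by strand-specific RNA-seq of rRNA-depleted total RNA, with 1 library from Ebf1 -/- pre-pro-B cells and 1 from Rag2 -/- pro-B cells, both on a C57BL/6 background. The first lack the B lineage transcription factor Ebf1 and were taken from female embryonic liver, and the second lack the recombinase subunit Rag2 and were taken from adult male bone marrow. Both were grown on OP-9 cells, a mouse bone marrow stromal line that feeds early lymphoid cells in culture, and both media held IL-7 at 5 ng/mL. The pre-pro-B medium also held Scf and Flt3l, each at 10 ng/mL, and the pro-B medium held neither. Cell stage can therefore not be told apart from genotype, sex, age, tissue of origin and added cytokines, and with 1 library per stage no difference below has a replicate check or a p-value. In such bulk samples, fewer cells of a type and less RNA per cell also cannot be told apart.

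As background, IL-7 binds a receptor made of the Il7r chain and the common gamma chain encoded by *Il2rg*, while TSLP binds Il7r paired with Crlf2. The kinase Jak1 sits on Il7r and Jak3 sits on the common gamma chain, and once active they phosphorylate Stat5a and Stat5b, which then enter the nucleus and bind DNA. Among the genes that STAT5 switches on are members of the Socs family, whose products damp the same receptors. In mice, IL-7 is required for B cells to develop beyond their earliest stages in the bone marrow.

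The libraries were checked first, at a nominal depth of 90 M reads each. FPKM, the number of fragments per kilobase of transcript scaled to the reads of a library, is a level per length, so that levels of different genes can be set side by side. *Ebf1* had an FPKM of 64.0 in the library labelled Ebf1 -/- and 273 in the pro-B library, and *Rag2* had an FPKM of 22.9 in the library labelled Rag2 -/- and 34.5 in the pre-pro-B library. Each targeted gene was lower in its own null library but not at 0, and an FPKM does not show which exons the reads came from. All 3 progenitor markers (*Cd34*, *Kit*, *Flt3*) were lower in the pro-B library and the B lineage markers *Cd79a*, *Vpreb1*, *Igll1*, *Pax5* and *Blnk* were higher there, so the marker genes followed the labelled stages. Markers of other cells also moved. The summed FPKM of 7 myeloid markers was 919 in the pre-pro-B library (0 to 463 per gene) and 9.26 in the pro-B library (0 to 6.40), with 5 of 7 lower by 2-fold and *Elane* at 0 in both. That of 5 T cell markers was 76.5 (0.239 to 38.0) and 3.13 (at most 3.0), with 3 of 5 lower and *Cd4* and *Cd8a* at 0 in the pro-B library. The 11 stromal markers summed to 19.3 (0 to 15.9) and 12.5 (0 to 2.92), of which *Pdgfrb* alone held 15.9 and 0.377. In the pro-B library 8 of the 11 were higher, 2 of them by 2-fold. Only *Pdgfrb* was lower, by more than 2-fold, and *Postn* and *Dcn* were at 0 in both. Of 3 erythroid markers measured, only *Klf1* was above 0, at 0.196 and 0.145. The part of other cell types in the results below was not tested.

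Of the 10 genes, the IL-7 receptor chain *Il7r* alone was higher in the pro-B library, and the other 9 were lower. On the scale of log2(FPKM + 1), with FPKM summed over the transcripts of a gene, 5 of 10 were at least 2-fold lower in the pro-B library (*Il2rg*, *Stat5a*, *Stat5b*, *Socs1* and *Socs2*) and 0 were at least 2-fold higher. Over all 20250 genes, 9.94% were at least 2-fold lower and 6.34% at least 2-fold higher. Among the 10528 genes with an FPKM of 1 or more in either library, a limit that 9 of the 10 passed, the shares were 19.1% and 12.2%. A lower value of any size was found for 9 of 10, beside 40.2% of all genes and 57.4% of the 10528. The median difference of the 10 genes was -1.0 on the log2 scale, against 0 over all genes and -0.14 over the 10528. The called genes lay close to the threshold. *Stat5a*, the nearest on its inner side, differed by -1.10, and *Jak3*, the nearest on its outer side, differed by -0.90. At a threshold of 3-fold 0 of the 10 were called, beside 10.6% of the 10528 called lower. With a pseudocount of 5 in place of 1, the count was 2 (*Il2rg* and *Socs2*), beside 9.46% of the 10528.

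**Figure D1:**
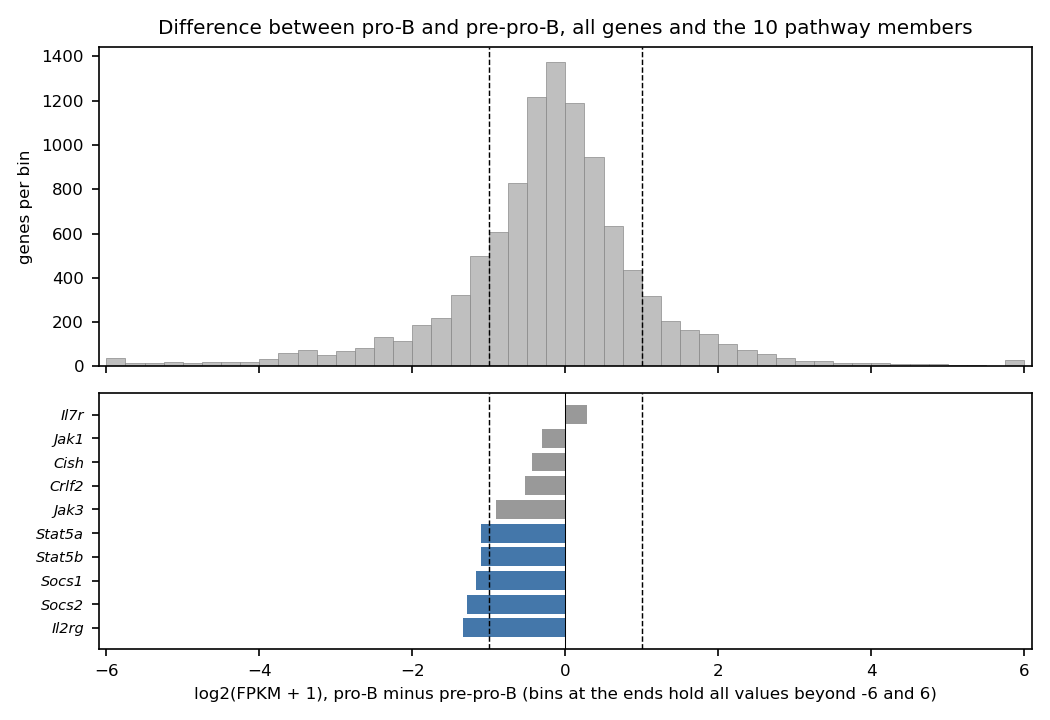
The upper panel counts genes with an FPKM of 1 or more in either library by their difference in log2(FPKM + 1), pro-B minus pre-pro-B, and the lower panel gives the same difference for the 10 receptor, kinase, STAT5 and feedback genes as bars. Dashed lines mark 2-fold, blue bars are genes at least 2-fold lower in the pro-B library, and the 10 genes lie between -1.34 (*Il2rg*) and 0.28 (*Il7r*).

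The receptor chains came first. *Il7r* (chromosome 15 of mm9, 9435916 to 9459631, minus strand, 8 exons) had an FPKM of 349 in the pre-pro-B library (Cuffdiff's 95% interval 13.8 to 765) and of 424 in the pro-B library (interval 8.57 to 981). It was the most abundant of the 10 in both libraries and lay at percentile 99.5 of all genes above 0 in each. The log2 difference was 0.28, and the first interval lay inside the second. *Il2rg*, the common gamma chain shared with the receptors for IL-2, IL-4, IL-9, IL-15 and IL-21, lies on chromosome X (98459717 to 98463594, minus strand). Its FPKM was 83.3 in the pre-pro-B library (interval 13.0 to 154) and 32.3 in the pro-B library (interval 1.5 to 64.8), a 2.58-fold lower level in the pro-B library and the largest difference among the 10 on the log2(FPKM + 1) scale, at -1.34. Its intervals overlapped. The level of *Il7r* was 4.19 times that of *Il2rg* in the pre-pro-B library and 13.1 times in the pro-B library. *Crlf2* (chromosome 5, 109983730 to 109988012, minus strand), the TSLP-specific chain, was far less abundant. Its summed FPKM was 8.71 and 5.75, so that *Il7r* stood 40.1 times above it in the pre-pro-B library and 73.8 times in the pro-B library. Most of this came from NM_016715, with an FPKM of 7.40 (interval 0 to 18.9) and 5.75 (interval 0 to 14.9). The other *Crlf2* transcript, NM_001164735, had 1.31 in the pre-pro-B library (interval 0 to 5.93) and 0.000423 in the pro-B library, below the level of 0.0245 that 3 fragments would give at the nominal depth.

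**Figure D2:**
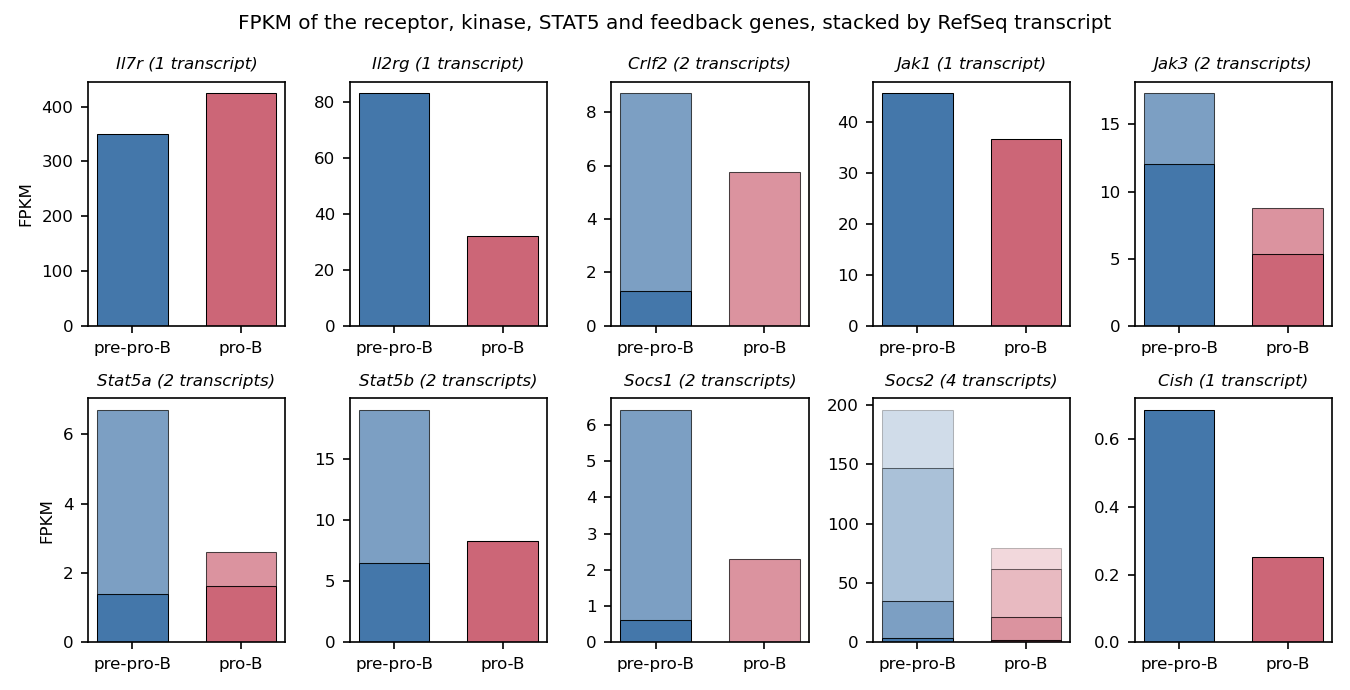
Each panel shows 1 gene, with FPKM on a linear axis that starts at 0 and differs between panels, as bars for pre-pro-B (blue) and pro-B (red) cells, 1 library each and without error bars. Bars are stacked by RefSeq transcript in order of accession from the base, darkest first, and *Il7r* is the panel in which the red bar is taller (424 against 349).

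Both kinases differed by less than 2-fold in their summed FPKM. *Jak1* (chromosome 4, 100824972 to 100937887, minus strand), which serves many cytokine receptors besides this one, had an FPKM of 45.8 in the pre-pro-B library (interval 2.98 to 88.4) and of 36.7 in the pro-B library (interval 3.02 to 70.7), a log2 difference of -0.31. *Jak3* (chromosome 8, 74200195 to 74214474, plus strand), which works with the common gamma chain, had a summed FPKM of 17.3 and 8.79, a log2 difference of -0.90 and a ratio of 1.97-fold. Both of its transcripts were lower in the pro-B library, and the more abundant one passed 2-fold by itself, at -1.05. NM_001190830 went from 12.1 (interval 0.354 to 24.7) to 5.32 (interval 0.0107 to 12.4), and NM_010589 from 5.27 (interval 0 to 15.2) to 3.47 (interval 0 to 9.76). *Jak1* was the more abundant kinase in both libraries, at 2.64 times *Jak3* in the pre-pro-B library and 4.18 times in the pro-B library. In all, the level order of the 10 genes was *Il7r*, *Socs2*, *Il2rg*, *Jak1*, *Stat5b*, *Jak3*, *Crlf2*, *Stat5a*, *Socs1* and *Cish* in the pre-pro-B library. In pro-B cells *Jak1* stood above *Il2rg* and *Jak3* above *Stat5b*, with the rest in the same order. With 1 library per stage, no pair of neighbours in these orders can be said to differ beyond its spread.

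The genes of the STAT5 pair lie next to each other on chromosome 11 of mm9, *Stat5b* at 100642045 to 100712038 on the minus strand and *Stat5a* at 100720665 to 100746483 on the plus strand. Their transcripts are so alike that some reads cannot be given to one of them with certainty. Of the 45 pairs among the 10 genes, 1 pair (*Stat5a* and *Stat5b*) shared stretches as long as a read (97 bases) with up to 2 mismatches, the number that the alignment allowed. Of all overlapping windows of 97 bases, 27.2% of those in the *Stat5a* transcript and 18.6% of those in the *Stat5b* transcript had such a match in the other. Windows with an identical match were fewer, at 7.87% and 5.39%. Of the windows that lie in the coding part, the shares with up to 2 mismatches were 41.5% and 42.1%. The longest identical stretch ran for 324 bases. Its first 97 bases, preceded by 20 bases, are shown to let the likeness be seen, with the bases of the identical stretch in capitals. Of the 20 bases before it, all but the last are also the same in both genes. Both stretches are coding and lie in exon 6 of the GENCODE transcript used, *Stat5a* at chr11:100735317-100735433 on the plus strand and *Stat5b* at chr11:100659919-100660035 on the minus strand of mm9.
Stat5a: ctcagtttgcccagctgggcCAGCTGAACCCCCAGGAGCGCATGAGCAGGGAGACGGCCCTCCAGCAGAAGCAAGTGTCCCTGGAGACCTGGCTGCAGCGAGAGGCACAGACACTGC
Stat5b: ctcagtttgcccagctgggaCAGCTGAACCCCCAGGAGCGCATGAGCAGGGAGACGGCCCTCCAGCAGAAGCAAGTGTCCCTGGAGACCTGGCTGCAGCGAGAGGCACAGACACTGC

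Both STAT5 genes had lower summed FPKM in the pro-B library. *Stat5b* had 19.0 in the pre-pro-B library and 8.30 in the pro-B library, a log2 difference of -1.11. *Stat5a* had 6.70 and 2.60, a log2 difference of -1.10. *Stat5b* was the more abundant of the pair in both libraries, at 2.84 and 3.19 times *Stat5a*. Within each gene, however, the transcripts did not move together. The *Stat5b* transcript NM_011489 had an FPKM of 12.6 in the pre-pro-B library (interval 0.142 to 26.3), which was 66.0% of the gene, and was listed at 0 in the pro-B library (interval 0 to 0). The other transcript, NM_001113563, had 6.47 (interval 0.00597 to 17.8) and 8.30 (interval 0.502 to 16.5), so that it was slightly higher in the pro-B library, by 0.32 on the log2 scale, and held 100% of the gene there. The lower level of *Stat5b* thus came wholly from NM_011489, and its direction turned when NM_001113563, the more abundant transcript by the mean of both libraries, stood in for the sum. In the pre-pro-B library alone NM_011489 was the more abundant. *Stat5a* showed the same arrangement in a milder form. NM_011488 went from 5.30 (interval 0.0987 to 11.7) to 0.964 (interval 0 to 3.05), from 79.1% to 37.1% of the gene, while NM_001164062 had 1.40 (interval 0 to 5.08) and 1.64 (interval 0 to 4.56). Transcripts of 1 gene share most of their exons, and Cuffdiff divides the reads among them, so a listed 0 does not show that a transcript was absent.

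**Figure D3:**
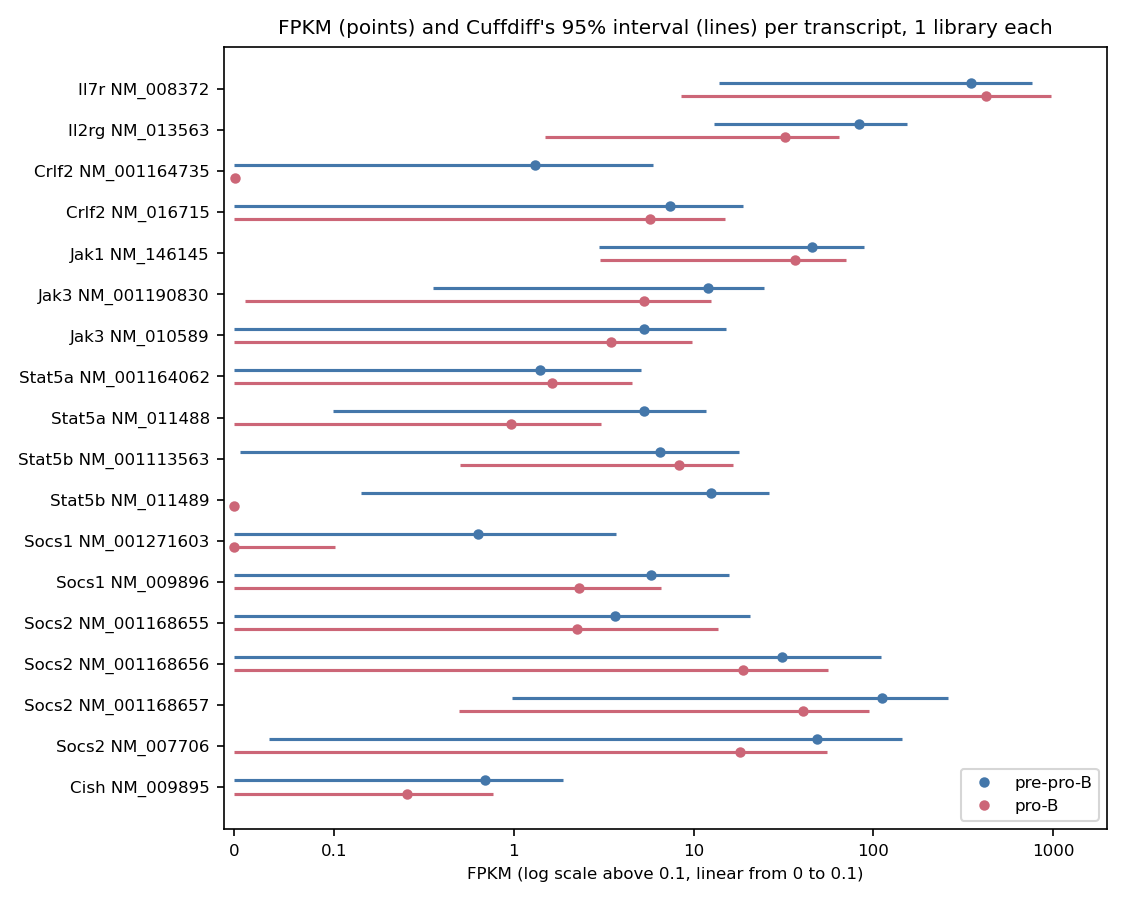
FPKM (points) with Cuffdiff's 95% interval (lines) for each of the 18 RefSeq transcripts of the 10 genes, on an axis that is logarithmic above 0.1 and linear from 0 to 0.1, for pre-pro-B (blue) and pro-B (red) cells. The intervals are apart for 1 transcript, *Stat5b* NM_011489, whose pro-B value is listed at 0 without width, and overlap for the other 17.

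Over the 18 transcripts, 15 had lower FPKM in the pro-B library and 3 had higher FPKM, the latter being those of *Il7r*, *Stat5b* NM_001113563 and *Stat5a* NM_001164062. The share of all transcripts with lower FPKM was not counted, so this split has no background beside it. Cuffdiff divides the reads of a gene among its transcripts, so the split adds no separate evidence to the counts by gene. The intervals were apart for 1 of 18. Among the 12734 transcripts of all genes with an FPKM of 1 or more in either library, 4.41% had intervals apart in either direction. Of the 18, 16 reached that limit, and the 1 transcript with intervals apart was among them. The lower limit of the interval was 0 in at least 1 library for 12 of the 18 transcripts. Cuffdiff's intervals come from its model, with the spread estimated from the 2 libraries as if they were replicates. All 18 were quantified with status OK in both libraries.

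The feedback inhibitors, which STAT5 signalling is known to induce, all had lower FPKM in the pro-B library, at very different levels. *Socs2* (chromosome 10, 94847996 to 94879814, minus strand) was by far the most abundant, with a summed FPKM of 196 in the pre-pro-B library and 79.9 in the pro-B library, a log2 difference of -1.29, and lay at percentiles 98.7 and 93.9 of all genes above 0. Each of its 4 transcripts was lower in the pro-B library. The leading one, NM_001168657, had 112 (interval 0.977 to 260) and 40.6 (interval 0.495 to 95.3), which was 57.3% and 50.8% of the gene. NM_007706 had 49.0 (interval 0.0347 to 145) and 18.1 (interval 0 to 55.0), and NM_001168656 had 31.1 (interval 0 to 110) and 18.9 (interval 0 to 56.2). The least abundant, NM_001168655, had 3.66 (interval 0 to 20.7) and 2.25 (interval 0 to 13.6). The intervals of all 4 overlapped between the libraries. *Socs1* (chromosome 16, 10783901 to 10785629, minus strand), a direct inhibitor of JAK kinases, had a summed FPKM of 6.41 and 2.30, a log2 difference of -1.17. Its main transcript, NM_009896, had 5.79 (interval 0 to 15.8) and 2.30 (interval 0 to 6.58), and NM_001271603 had 0.628 (interval 0 to 3.68) and was listed at 0 in the pro-B library (interval 0 to 0.101). *Socs2* was 30.6 times *Socs1* in the pre-pro-B library and 34.8 times in the pro-B library.

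*Cish*, named as a cytokine-inducible SH2 protein and often used as a readout of STAT5 activity, was the least abundant of the 10 in both libraries. *Cish* (chromosome 9, 107198357 to 107205115, plus strand) had an FPKM of 0.688 in the pre-pro-B library (interval 0 to 1.88) and of 0.254 in the pro-B library (interval 0 to 0.768). It lay at percentiles 23.7 and 19.2 of all genes above 0 and was the only one of the 10 below an FPKM of 1 in both. At the nominal depth its FPKM would stand for about 134 and 49.3 fragments, well above the 3 fragments that a count of 0 allows. It was thus low but above this counting floor, although the lower limit of Cuffdiff's interval was 0 in both libraries. The ratio was 2.71-fold, but on the log2(FPKM + 1) scale the difference was -0.43, since a pseudocount shrinks the change of a gene this low. Without a pseudocount, or with 0.1 in its place, *Cish* counted as a sixth gene at least 2-fold lower. These settings called 20.9% and 22.1% of the genes with an FPKM of 1 or more in either library, the first without genes at 0 in a library.

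STAT5 proteins bind DNA at pairs of half-sites with the letters TTCNNNGAA, a motif that reads the same on both strands. It was searched in RefSeq windows of build GRCm38.p6 that run from 250 bases before to 50 bases after a gene's start, so that base 251 is the start. Windows were at hand for 9 of the 10 genes (11 windows, of which *Stat5a* and *Stat5b* have 2 each), and those of 2 genes, *Cish* and *Il7r*, held the motif. Of all 32851 windows, 8.30% held it at least once and 0.457% at least 2 times. *Cish* had 2 matches, TTCCTGGAA at bases 251 to 259 and TTCTTGGAA at bases 262 to 270, and *Il7r* had TTCAGGGAA at bases 109 to 117. These are the windows of the least and the most abundant of the 10 genes, shown with the motif in capitals. The *Cish* window is chr9:107296409-107296708 on the plus strand and the *Il7r* window is chr15:9529827-9530126 on the minus strand of GRCm38.p6. A match describes the letters of the window and does not show binding.
Cish: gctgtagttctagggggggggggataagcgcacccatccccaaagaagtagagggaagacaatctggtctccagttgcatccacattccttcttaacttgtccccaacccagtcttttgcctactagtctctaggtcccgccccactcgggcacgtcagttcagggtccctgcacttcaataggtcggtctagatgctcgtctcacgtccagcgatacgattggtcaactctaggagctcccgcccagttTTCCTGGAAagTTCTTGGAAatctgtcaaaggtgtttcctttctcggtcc
Il7r: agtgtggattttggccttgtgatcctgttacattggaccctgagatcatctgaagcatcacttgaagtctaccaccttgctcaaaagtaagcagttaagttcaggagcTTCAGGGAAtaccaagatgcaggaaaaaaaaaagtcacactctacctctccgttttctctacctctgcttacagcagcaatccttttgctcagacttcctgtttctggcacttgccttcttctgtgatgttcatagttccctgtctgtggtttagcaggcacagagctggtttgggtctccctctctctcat

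The other genes of the pathway were described from 5 lists with 48 genes. Of these, 16 were at least 2-fold lower in the pro-B library and 4 at least 2-fold higher, and the median difference was -0.42 on the log2 scale. Over all genes the shares were 9.94% and 6.34%, with a median of 0. The 39 of the 48 that reached an FPKM of 1 in a library held all 16 and all 4, with a median of -0.56. Among all genes that reached it, the shares were 19.1% and 12.2%, with a median of -0.14. The cytokines themselves were near 0 in both libraries. *Tslp*, *Il2*, *Il4*, *Il15* and *Il21* were listed at 0 in both, *Il7* was listed at 0 in the pre-pro-B library and at 0.0762 in the pro-B library, and *Il9* was listed at 0 and 0.251.

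Other chains of receptors that use the common gamma chain were mostly low in the pro-B library, where 3 of 6 were at least 2-fold lower and 1 was higher. Of the 6, 4 reached an FPKM of 1 in a library, and among all genes that did, the shares were 19.1% and 12.2%. *Il2rb*, the signalling chain of the IL-2 and IL-15 receptors, had an FPKM of 27.8 in the pre-pro-B library (interval 2.55 to 62.9) and of 0.150 in the pro-B library (interval 0 to 0.616), and these intervals were apart. *Il4ra*, the IL-4 receptor chain, had 30.1 (interval 1.37 to 72.3) and 0.403 (interval 0 to 1.42). *Il21r*, with an FPKM of 7.76 and 0.353, was the third. *Il15ra*, which binds IL-15, went the other way, from 1.74 to 12.4 summed over 7 transcripts, a log2 difference of 2.30. Its most abundant transcript, NM_133836, had 1.29 (interval 0 to 3.83) and 8.41 (interval 0.0543 to 20.6), and these intervals overlapped. *Il2ra* and *Il9r* stayed below 1 in both. Of these 6 chains, *Il15ra* alone was above an FPKM of 1 in the pro-B library. The summed FPKM of the T cell markers and of the myeloid markers was higher in the same library as *Il2rb* and *Il4ra*, and so were the progenitor markers. Whether other cells had a part in these differences was not tested.

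Among the 7 other JAKs and STATs, none was at least 2-fold higher in the pro-B library. All 7 reached an FPKM of 1 in a library, and among all genes that did, 12.2% were at least 2-fold higher. *Jak2*, which TSLP receptors can use, had almost the same summed FPKM in both, at 32.3 and 34.0, but its transcripts differed. NM_001048177 had 11.0 (interval 0.0202 to 30.0) and 0.000788 (interval 0 to 0), and NM_008413 had 21.4 (interval 0.377 to 45.9) and 34.0 (interval 3.38 to 64.8). The intervals of NM_001048177 were apart, but the one in the pro-B library has no width and does not hold its own value. As for *Stat5b*, such a value does not show that the transcript was absent. *Stat3*, which transmits IL-6 family signals and lies beside *Stat5a* on chromosome 11, had a summed FPKM of 47.6 and 10.3, a log2 difference of -2.11. *Stat6*, which acts behind *Il4ra*, was within 2-fold at 30.6 and 21.1. In pro-B cells *Stat5b* at 8.30 was below *Stat6*, *Stat2* (10.8) and *Stat3*.

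Negative regulators were lower in the pro-B library for 15 of 17 genes, of which 6 passed 2-fold and 0 passed it upward, with a median difference of -0.56. All 17 reached an FPKM of 1, and among all genes that did, 57.4% were lower, 19.1% at least 2-fold lower and 12.2% at least 2-fold higher. *Ptpn6*, the phosphatase Shp1, had a summed FPKM of 88.3 and 15.6. The ubiquitin ligases *Cblb* (20.6 and 5.82) and *Cbl* (36.4 and 14.9) were also called. Of the remaining Socs genes, *Socs5* (8.87 and 0.909) and *Socs3* (4.83 and 1.62) were at least 2-fold lower, *Socs6* and *Socs7* were within 2-fold, and *Socs4* was higher at 31.3 and 57.6, a difference of 0.86 that did not reach 2-fold. Of all 8 Socs family genes measured here with *Cish*, *Socs2* was the most abundant in both libraries. *Ptprc*, the phosphatase CD45, had a summed FPKM of 269 in the pre-pro-B library and of 0.917 in the pro-B library. Since an isoform of this protein is the B220 antigen carried by B lineage cells, the pro-B value is in doubt, and whether it was quantified correctly was not tested. Without *Ptprc*, a choice made after its values were seen, 14 of 16 negative regulators were lower and 5 passed 2-fold.

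**Figure D4:**
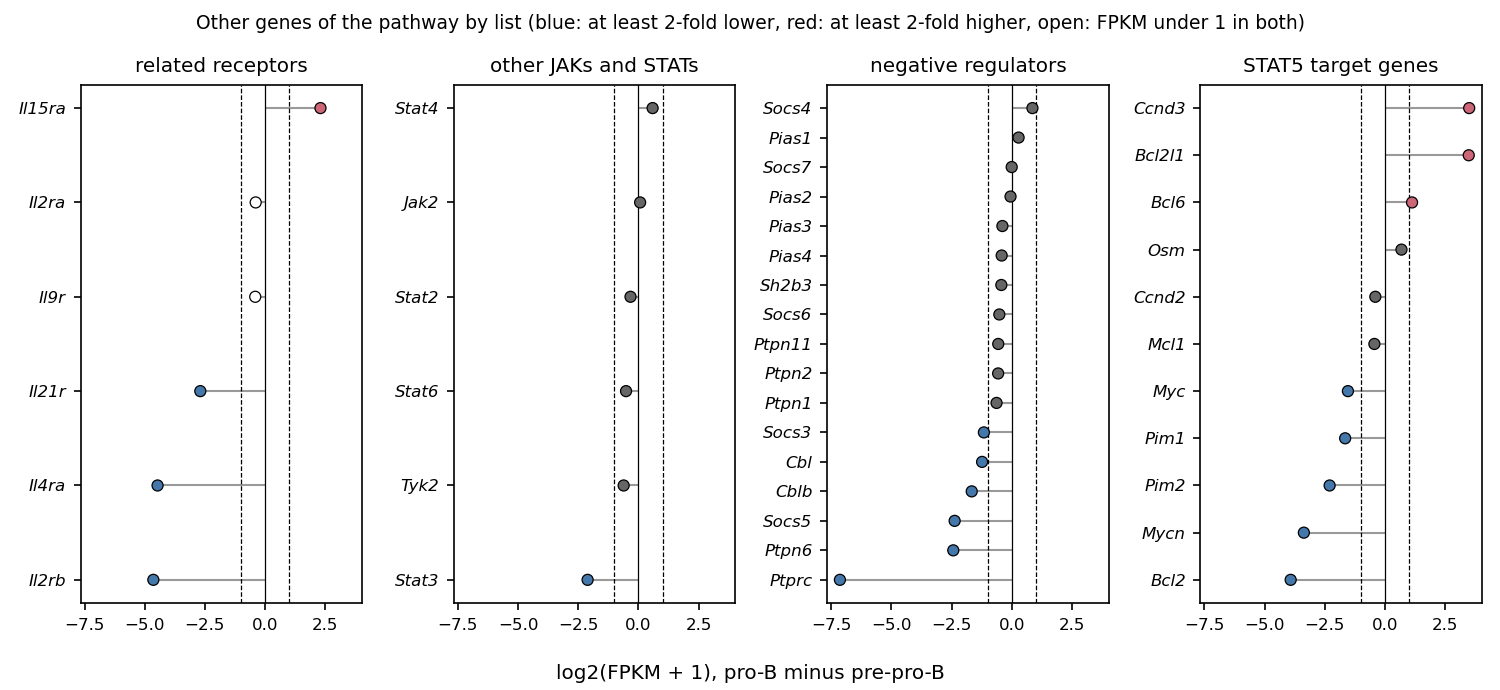
Each point is 1 gene of the pathway outside the 10 (1 listed gene is not shown), placed by its difference in log2(FPKM + 1), pro-B minus pre-pro-B, in a panel for each of 4 lists. Dashed lines mark 2-fold, open points are genes under an FPKM of 1 in both libraries, and the points reach from -7.14 (*Ptprc*) to 3.50 (*Ccnd3*).

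Genes known as STAT5 targets did not move as a block. Of 11, 5 were at least 2-fold lower in the pro-B library, 3 were at least 2-fold higher, and the median difference was -0.44. The 3 were *Bcl2l1*, *Ccnd3* and *Bcl6*, and these counts include *Bcl6* although STAT5 is known to repress it. All 11 reached an FPKM of 1, where the shares over all genes were 19.1% and 12.2% with a median of -0.14. The survival kinase *Pim1* had an FPKM of 79.9 (interval 5.57 to 156) and 24.7 (interval 0.496 to 50.9), and *Pim2* had 16.4 and 2.53. *Myc* (19.0 and 5.88) and *Mycn* (57.7 and 4.68), which drive growth, were lower as well. The survival genes *Bcl2* and *Bcl2l1* went in opposite directions. *Bcl2* had a summed FPKM of 172 and 10.4, whereas *Bcl2l1*, which encodes Bcl-xL, had 4.70 (interval 0.0667 to 13.2) and 62.6 (interval 2.92 to 154). *Mcl1*, the survival gene on which IL-7 responsive cells are known to depend, was within 2-fold at 146 and 108. The D cyclins differed too, with *Ccnd3* at 50.1 and 577 and *Ccnd2* at 34.9 and 26.2. *Bcl6*, which STAT5 is known to repress, had 7.13 and 16.7, a log2 difference of 1.12. *Osm* was low at 0.960 and 2.15.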

How the data were processed

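The authors trimmed the single-end 97 bp reads, sequenced to a nominal 90 M per library per the labels, aligned them to mm9 with TopHat (1.5 in the submitters' processing notes) and estimated an FPKM with a 95% confidence interval for each RefSeq transcript with Cuffdiff 2.1.1. Multi-read and bias correction were used, and the libraries were not scaled to each other. The deposited table holds FPKM and no counts, so numbers of fragments are approximations from FPKM, transcript length and nominal depth, the floor is 3 fragments, and both cover counting error only. A further deposited table, with the authors' log2 fold changes, p-values and q-values, was not used, and neither were its 2 per-sample columns.

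Of 30485 rows, the 26968 protein-coding ones (NM_ accessions, 26580 different) were kept. Gene symbols came from a RefSeq table of GRCm38.p6, used for names alone, which matched 26173 accessions. FPKM were summed per symbol, and differences were taken on log2(FPKM + 1), pro-B minus pre-pro-B, and called at 2-fold. No test was possible with 1 library per stage. Gene coordinates are those of GENCODE on mm9. Read-sized stretches shared between genes were counted on the GENCODE transcript with the longest coding part.

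Named genes were the 10 genes, the pathway genes at least 2-fold different that reached an FPKM of 10, and the 2 most abundant of each list. Others named to complete a list were chosen after their values were seen. Values of 1 pathway gene and 1 marker gene that the rules cover are not reported here, although list counts include them. The 10 genes, the pathway lists (cytokines, related receptors, other JAKs and STATs, negative regulators, STAT5 target genes) and the marker lists were chosen with earlier results of these data known. The scripts, tested on simulated data, used Python 3.11.15, pandas 2.3.3, numpy 2.4.6 and matplotlib 3.10.9. As alternatives, other pseudocounts, TPM scaling, median ratio scaling, a filter on low FPKM, the most abundant transcript of a gene, single rows for repeated accessions and other fold thresholds were tried.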

Additional observations from a re-analysis of the deposited data

How the results depend on the processing

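The count of 5 of the 10 genes at least 2-fold lower in the pro-B library was 2 with a pseudocount of 5 (*Il2rg* and *Socs2*) and 0 at a threshold of 3-fold. Among the 10528 genes with an FPKM of 1 or more in either library, these settings called 9.46% and 10.6% lower. The count was 5 or 6 under the other 8 alternatives, beside 11.3% to 29.8% of those of the 10528 that each setting kept. With the most abundant transcript of each gene, *Stat5b* was lost and *Jak3* (-1.05) gained. None of the 10 was called higher under any of the 10 alternatives, beside 6.58% to 20.1% of the same genes. The count of other pathway genes called higher, 4 of 48, was 7 at a threshold of 1.5-fold, where 20.1% of the 10528 were called higher. The log2 difference of *Stat5b* reversed, from -1.11 to 0.32, when its most abundant transcript by the mean of both libraries stood in for the sum, because that transcript is not the one listed at 0 in the pro-B library. Otherwise each of the 10 genes kept its direction, with *Il7r* between 0.19 and 0.37 and *Il2rg* between -1.43 and -1.24. TPM scaling moved all log2 ratios by -0.09 and median ratio scaling by 0.09. No paired analysis was possible because each stage has 1 library, and for the same reason no library could be left out. The approximate fragment numbers rest on the nominal depth, and the numbers of aligned reads were not used here.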

Other observations

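The transcripts of some other pathway genes did not keep the same shares of the gene in both libraries. The leading transcript was another one in the pro-B library for *Ptprc*, whose level there is in doubt, but not for *Ptpn6* or *Ccnd3*. It was also another one for *Tyk2*, where NM_018793 had 4.87 and 1.47 and NM_001205312 had 2.04 and 2.70. *Pias3* was led by NM_001165949 at 2.31 in the pre-pro-B library and by NM_146135 at 1.63 in the pro-B library. The intervals of these *Tyk2* and *Pias3* transcripts overlapped between the libraries. *Ptpn6*, the phosphatase Shp1, was almost wholly NM_013545 in the pre-pro-B library, with an FPKM of 88.3 (Cuffdiff's 95% interval 3.40 to 174), against 10.2 (interval 0.401 to 22.0) in the pro-B library. Its other transcript, NM_001077705, had 0.0140 in the pre-pro-B library (interval 0 to 0.0239) and 5.40 in the pro-B library (interval 0 to 14.8). *Ptprc* was carried in the pre-pro-B library by NM_011210, at an FPKM of 164 (interval 0.647 to 422), and NM_001111316, at 105 (interval 0.0242 to 306), while NM_001268286 was listed at 0. In the pro-B library these had 7.45e-05, 0.141 and 0.776, in the same order, all below an FPKM of 1. The intervals of 0.141 (0 to 0.742) and 0.776 (0 to 2.08) overlapped each other. For *Ccnd3*, a D cyclin, NM_007632 went from 26.3 (interval 0 to 68.7) to 504 (interval 7.21 to 1197), and NM_001081635 from 20.6 to 63.1. These genes were picked after their values were seen.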
